A study of Mus musculus with 6 samples.

Results

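The cytosolic ribosomal protein genes encode the proteins of the ribosomes that translate messenger RNA in the cytoplasm. They were taken as the genes whose only annotated symbol is Rpl or Rps with a number and an optional paralog letter, or Rplp0, Rplp1 or Rplp2, each represented by its probe set with the highest mean signal. The rule found 47 genes among the 12394 measured, 26 of the large subunit and 21 of the small subunit. A further 27 ribosomal protein genes were read only by probe sets that the annotation also gives to other genes, and are not members. The data are Affymetrix arrays of regulatory T (Treg) cells, CD4 T cells that restrain immune responses, sorted as CD4+CD25+YFP+ cells from mouse lymph nodes and spleen. Arrays titled GATA3KO (3 arrays, called deficient below) came from Gata3F/FFoxp3YFP-Cre mice, in which a Cre recombinase made from the Foxp3 locus deletes the floxed part of both Gata3 alleles. Arrays titled WT (3 arrays, called sufficient below) came from Gata3F/+Foxp3YFP-Cre mice. These controls carry the same Cre and 1 floxed allele, so both groups have Cre-expressing Treg cells and the controls are not untouched wild type. The series gives 3 mice a group; the ages are not given in the sources used here.

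A ribosome has a small subunit, which binds messenger RNA and reads its codons, and a large subunit, which joins the amino acids and holds the exit tunnel of the new protein. The proteins are needed in matched amounts, and most of their messenger RNAs begin with a tract of pyrimidines that lets signalling through mTOR set how strongly they are translated. In T cells ribosome production increases with activation and growth. An array of total RNA reads the amount of messenger RNA and not its translation.

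The annotated starts of the genes were searched for runs of pyrimidines close to them. Of the 47 members 41 had a promoter in the RefSeq table (GRCm38.p6), and 19 of them had a run of at least 8 pyrimidines within 15 bases on either side of an annotated start. That is 46.3% of the 41, against 14.03% of the 17492 protein-coding genes in the table, taking for each gene the start with the longest run. A run counted on either side of the start, so these are not shares of genes whose messenger RNA begins with the tract. The Rps27l run begins at position -12 and the Rpl39 run at position 7 relative to the start. The windows below run from 30 bases before the start to 20 after it. Capitals mark the longest run within 15 bases of the start, cut at that limit, so that pyrimidines further out, as in Rps25, Rpl39 and Rpl39l, stay in lower case. They are shown for pairs of a gene and its paralog and for the 3 members whose values are the most spread or stand furthest to one side in the results.
Rpl22: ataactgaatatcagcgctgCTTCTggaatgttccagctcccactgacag
Rpl22l1: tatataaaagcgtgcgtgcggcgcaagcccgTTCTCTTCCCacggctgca
Rps27: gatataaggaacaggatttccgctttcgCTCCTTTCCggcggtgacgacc
Rps27l: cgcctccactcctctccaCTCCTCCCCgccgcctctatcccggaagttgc
Rpl39: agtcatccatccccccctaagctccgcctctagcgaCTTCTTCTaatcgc
Rpl39l: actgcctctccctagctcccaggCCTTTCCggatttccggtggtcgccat
Rps6: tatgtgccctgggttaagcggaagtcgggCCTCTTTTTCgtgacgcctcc
Rps25: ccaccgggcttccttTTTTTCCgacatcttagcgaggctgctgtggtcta
Rpl3l: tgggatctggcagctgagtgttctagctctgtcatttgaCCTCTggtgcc

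These windows lie at chr4:152324406-152324455 on the plus strand (Rpl22), chr3:28805478-28805527 plus (Rpl22l1), chr3:90213629-90213678 minus (Rps27), chr9:66946056-66946105 plus (Rps27l) and chrX:37085203-37085252 minus (Rpl39). Rpl39l lies at chr16:10170198-10170247 plus, Rps6 at chr4:86857348-86857397 minus, Rps25 at chr9:44407684-44407733 plus and Rpl3l at chr17:24727796-24727845 plus. The run was 10 bases long in Rpl22l1 and Rps6 and 9 in Rps27 and Rps27l. It was 5 bases long in Rpl3l, the paralog known from heart and skeletal muscle, and in the start shown for Rpl22. Rpl22, Rps27l and Rpl3l each have 2 annotated starts, and the one with the longer run is shown. The letters CCGGAAG, the core of an Ets factor site, were found on either strand within the 300 bases around the start of 19 of the 41 members (46.3%, against 11.9% of all protein-coding genes). The letters AAGATGG, found at YY1 sites, were in 7 of the 41 (17.1% against 6.38%), and no member had overlapping matches of both. The 19 members with a run of at least 8 had a median log2 change of 0.023 between the groups and the 22 others of 0.015, a description with no test.

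No ribosomal protein gene passed the test between the deficient and sufficient arrays. Of the 47 members 0 were higher and 0 lower at an adjusted p under 0.05 (limma, 3 arrays against 3), where 2.21% of all genes passed (1.44% higher and 0.766% lower). Only Rps25, with a positive change, and Rpl39l, with a negative one, had an unadjusted p under 0.05, that is 2 members, against 14.4% of all genes. The median log2 change of the members, deficient minus sufficient, was 0.0078, and 25 of 47 changes were positive, a share of 53.2% beside 53% over all genes. That median was negative (-0.011) when arrays were centred on the median of all other genes, so no direction can be given for the family. The deposited values were quantile normalized, which gives every array the same distribution. Most of the brightest genes were members, so a shift shared by them could be reduced by this step, which was not tested. The median size of a change was 0.033 in the members and 0.080 over all genes. The count over all genes behind the 2.21%, 274, fell to 62 without sufficient replicate 2, 179 without sufficient replicate 3, 62 without deficient replicate 2 and 102 without deficient replicate 3, while the members' count was 0 in each of those fits.

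**Figure D1:**
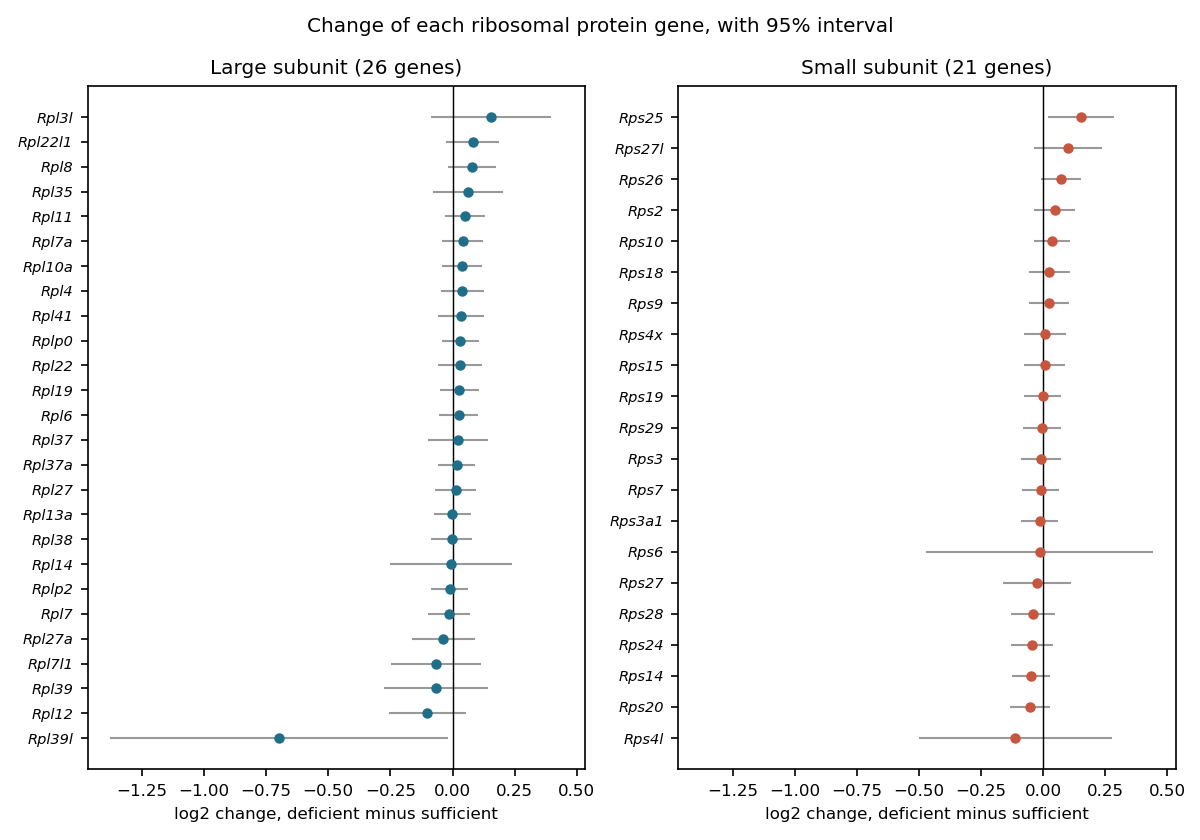
Log2 change (deficient minus sufficient) of each member with its 95% confidence interval, large subunit on the left and small subunit on the right. All but 5 points lie within 0.1 of 0, Rpl39l at -0.70 lies furthest from it, and only the intervals of Rpl39l and Rps25 leave out 0.

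The intervals were narrow for most members. The 95% interval of the change, not adjusted for the number of genes, lay wholly within 0.2 on the log2 scale of 0, a 1.15-fold change, for 36 of the 47. A change beyond 0.1 in either direction was measured in 5 members: Rpl39l, Rps4l and Rpl12 (negative) and Rps25 and Rpl3l (positive). In 6 members (12.8%) every array of one group lay above every array of the other, namely Rps14, Rplp0, Rps10, Rps26, Rpl22l1 and Rps25, beside 19.8% of all genes.

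The members were read mostly by very bright probe sets. For 34 of 47 the signal lay above the 99th percentile of all genes, and 31 had a mean log2 intensity of at least 13, where the highest value on any array was 14.38. Of all genes 54 had such a mean, so the members make up most of the bright end of the arrays. Within the 31 bright members the changes ran from -0.05 (Rps20) to 0.08 (Rpl8), with a median within-group SD of 0.029. The 23 other genes as bright, such as Actb and Tpt1, had 0 calls by limma, 3 at an unadjusted p under 0.05, and a median size of change of 0.041, beside 0.028 for the bright members. These 23 include Rpsa and Fau, ribosomal protein genes outside the rule, and translation genes such as Eef1a1, so they are not a set apart from the ribosome. Probe sets can lose response near the top of the scale; whether that narrowed these values was not tested, and scanner files were not used here. Across the 47 members the size of the change was smaller where the signal was higher (Spearman rho = -0.47), whereas over all genes rho was -0.03; points share arrays, and the values are a description.

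**Figure D2:**
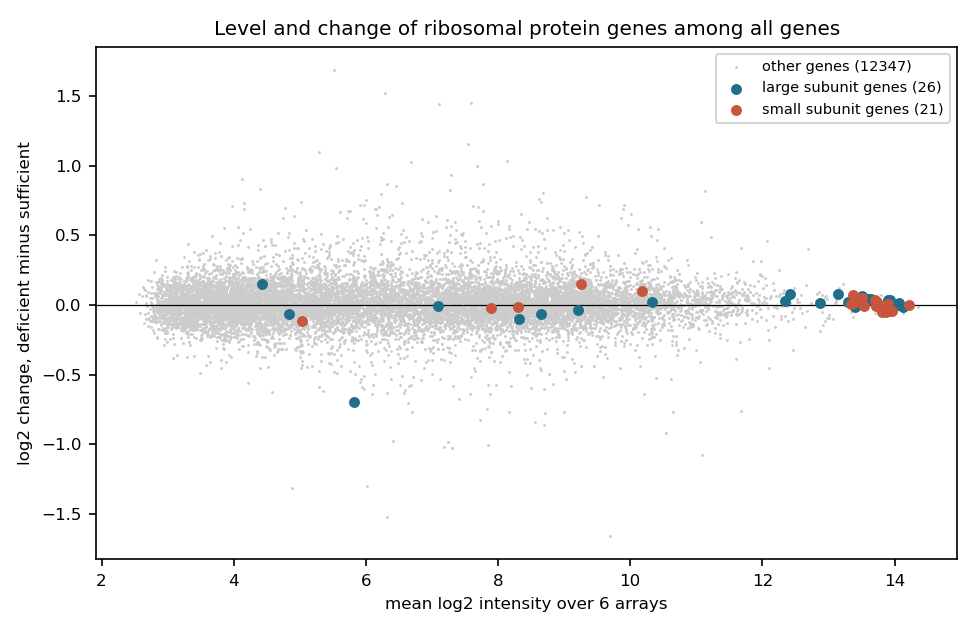
Mean log2 intensity over the 6 arrays against log2 change for every gene, with large subunit genes in blue, small subunit genes in red and other genes in grey. The members gather at the right end, 31 of them at a mean of at least 13, close to 0 on the vertical axis.

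The large and small subunit genes were compared by their changes, since signals of different probe sets are not comparable as levels. Large subunit genes had a median log2 change of 0.022, with 16 of 26 positive, and small subunit genes of -0.0037, with 9 of 21 positive. The difference of the medians was 0.026. The means had the opposite signs, -0.010 for the large and 0.0041 for the small subunit. Rpl39l, at -0.70, weighs on the large subunit mean only. In the small subunit the largest change was that of Rps25, at 0.15. The mean deviation of the large subunit minus that of the small was -0.059, -0.0030 and 0.062 in sufficient replicates 1, 2 and 3 and 0.0076, -0.013 and -0.038 in deficient replicates 1, 2 and 3. With Rpl39l included, the deficient arrays thus lie inside the spread of the sufficient ones. Rpl39l was highest in sufficient replicate 3 and lowest in deficient replicate 1, and these array differences were not computed without it. Without deficient replicate 1 the difference of the medians was -0.00053. Among the bright members alone, 11 of 15 large subunit changes were positive (median 0.032) and 7 of 16 small subunit changes (median -0.0030). The same array differences over bright members were -0.0037, -0.018 and 0.021 in the sufficient and 0.061, 0.0064 and 0.017 in the deficient replicates, with deficient replicate 1 highest and the groups overlapping.

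Among the large subunit proteins, the stalk that recruits elongation factors is built on Rplp0 with Rplp1 and Rplp2. Rplp0 read 13.88, 13.88 and 13.90 in sufficient replicates 1, 2 and 3 and 13.93, 13.92 and 13.91 in the deficient ones. Its groups did not overlap, but the change was 0.03 ± 0.03 (SE, adjusted p = 0.741 by limma). Rplp2 read 14.12, 14.11 and 14.16 against 14.12, 14.12 and 14.11, with a change of -0.01 ± 0.03. Rplp1 had no probe set of its own, as was true of Rpl3, Rpl5, Rpl10 and Rps27a, which are not described.

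Rpl8 and Rpl35 had the largest positive changes among bright large subunit members. Rpl8 read 13.03, 13.13 and 13.18 in the sufficient and 13.22, 13.17 and 13.19 in the deficient arrays, a change of 0.08 ± 0.04 (SE, adjusted p = 0.455 by limma). Without sufficient replicate 1, its lowest array, the Rpl8 change was 0.04. Rpl35, a protein at the mouth of the exit tunnel, read 13.46, 13.44 and 13.55 against 13.70, 13.49 and 13.45, so that deficient replicate 1 alone stood above the sufficient arrays. Its change of 0.06 ± 0.06 became -0.01 without that array. Rpl11, which besides its place in the ribosome binds and inhibits the p53 regulator Mdm2, read 13.42, 13.43 and 13.49 against 13.51, 13.50 and 13.48, with deficient replicate 3 inside the sufficient range (0.05 ± 0.04).

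Rpl38 and Rpl13a, members with known separate roles, had hardly any change between the group means. Rpl38, which mouse genetics ties to the translation of Hox messenger RNAs, read 14.04, 13.97 and 13.97 in the sufficient and 13.95, 14.02 and 13.998 in the deficient arrays (change -0.0036). Rpl13a, a silencer of inflammatory transcripts when released from the ribosome, read 14.09, 14.04 and 14.05 against 14.08, 14.06 and 14.05, with a change of -0.00025 and a 95% interval from -0.08 to 0.08. At the other end of the large subunit, Rpl12, a stalk base protein, read 8.37, 8.41 and 8.33 against 8.12, 8.34 and 8.34. Its change of -0.10 ± 0.07 (adjusted p = 0.572 by limma) was -0.03 without deficient replicate 1, the low array.

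The small subunit held the member with the smallest p, Rps25. Rps25, known for its part in initiation at internal ribosome entry sites, read 9.26, 9.08 and 9.18 in the sufficient and 9.34, 9.26 and 9.38 in the deficient arrays, so the groups only just failed to overlap. Sufficient arrays averaged 9.17 ± 0.09 and deficient arrays 9.33 ± 0.06 (SD, n = 3 each). The log2 change was 0.15 ± 0.06 (SE, 95% interval 0.02 to 0.29), which is 1.11-fold. It did not pass (adjusted p = 0.263 by limma) in any of its 17 alternative fits, where the adjusted p ran from 0.142 to 0.623. Rps26, which lies at the exit of the messenger RNA channel, read 13.30, 13.34 and 13.36 against 13.40, 13.43 and 13.39, every deficient array above every sufficient one. Its change was 0.07 ± 0.04 (adjusted p = 0.399 by limma).

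Several small subunit genes of known disease or signalling roles stayed within narrow limits. Rps19, the gene most often mutated in Diamond-Blackfan anaemia, read 13.72, 13.69 and 13.73 in the sufficient and 13.71, 13.71 and 13.71 in the deficient arrays (-0.0022 ± 0.03, 95% interval -0.08 to 0.07). Rps14, whose loss underlies the anaemia of the 5q- syndrome, read 13.83, 13.86 and 13.83 against 13.76, 13.82 and 13.79, with every deficient array below every sufficient one (-0.05 ± 0.03, adjusted p = 0.588 by limma). Another Rps14 probe set, at a mean of 13.77, had overlapping groups and a change of -0.02. Rps3, also described as a partner of NF-kB, read 13.57, 13.53 and 13.50 against 13.52, 13.54 and 13.52. Its groups overlapped, with a change of -0.0095.

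Rps20 and Rps10, which are tagged with ubiquitin when ribosomes collide, differed in sign. Rps20 read 13.86, 13.91 and 13.92 against 13.85, 13.86 and 13.81 (-0.05 ± 0.04) and Rps10 13.67, 13.68 and 13.70 against 13.72, 13.72 and 13.72 (0.04 ± 0.03). Neither passed, and whether they differ from each other was not tested. Rps24 read 13.92, 13.99 and 13.90 in the sufficient and 13.90, 13.91 and 13.87 in the deficient arrays, with overlapping groups (-0.04 ± 0.04).

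Rps6, the ribosomal target of the S6 kinases, had the second widest spread of the members and split the arrays without regard to group. It read 8.75, 8.15 and 8.01 in the sufficient and 8.06, 8.11 and 8.71 in the deficient arrays, high in sufficient replicate 1 and deficient replicate 3. The change was -0.01 ± 0.20 (SE, 95% interval -0.47 to 0.44). It ran from -0.22 without deficient replicate 3 to 0.21 without sufficient replicate 1, so no direction can be given.

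**Figure D3:**
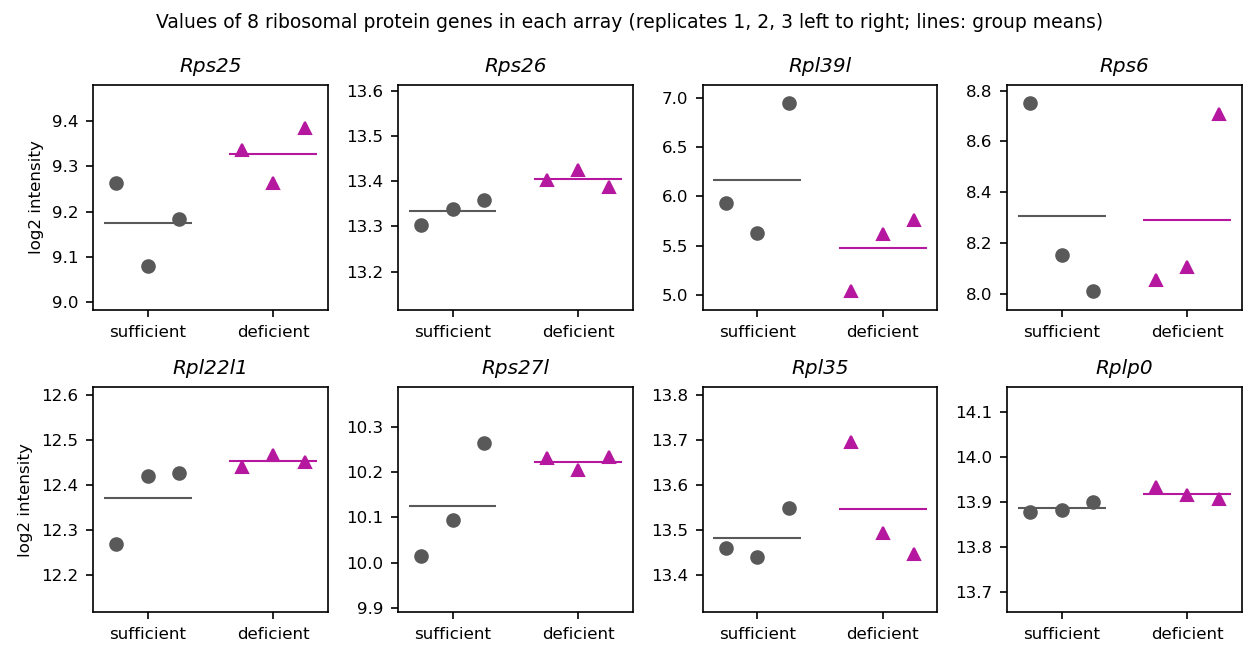
Log2 intensity of 8 members in each array, circles for sufficient and triangles for deficient replicates 1, 2 and 3, with lines at group means; vertical scales differ between panels. Rps6 is high in sufficient replicate 1 and deficient replicate 3, and Rpl39l in sufficient replicate 3. Rpl35 is high in deficient replicate 1, and Rps26 and Rplp0 separate the groups by less than 0.1.

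The paralogs, genes that arose as copies of a ribosomal protein gene and are often restricted to certain tissues, held the widest changes. Rpl39l, known from male germ cells, read 5.93, 5.63 and 6.95 in the sufficient and 5.04, 5.62 and 5.76 in the deficient arrays. Sufficient replicate 3 stood more than 1 log2 unit above every other array, deficient replicate 1 was the lowest, and the groups overlapped. The Rpl39l signal was low, with a mean of 5.82 below the all-gene median of 6.47. Its value in deficient replicate 1 lay in the dim range, under 5.25. Sufficient arrays averaged 6.17 ± 0.69 and deficient arrays 5.47 ± 0.38 (SD, n = 3 each), a log2 change of -0.70 ± 0.30 (SE, adjusted p = 0.333 by limma), or 1.62-fold lower. Without sufficient replicate 3 the change was -0.31, and it stayed negative in all 17 alternative fits with adjusted p from 0.116 to 0.563.

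Its parent Rpl39, a small protein lining the exit tunnel, was represented by a dim probe set, at 4.83, 4.96 and 4.84 against 4.77, 4.86 and 4.80 (-0.07 ± 0.09). Rpl3l and Rps4l were also dim, below 5.25, the 40th percentile of all probe sets. Rpl3l read 4.21, 4.37 and 4.46 against 4.41, 4.47 and 4.63 (0.15 ± 0.11) and Rps4l 5.13, 5.01 and 5.11 against 4.51, 5.19 and 5.21 (-0.11 ± 0.17). Both pairs of groups overlapped, and without deficient replicate 1 the Rps4l change was 0.12. Rps4x, the parent of Rps4l, had a change of 0.0078 ± 0.04 on a bright probe set.

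Rpl22 and Rpl22l1 form the pair best known in lymphocytes, where loss of Rpl22 blocks the development of conventional T cells. Rpl22 read 12.30, 12.31 and 12.37 in the sufficient and 12.40, 12.33 and 12.35 in the deficient arrays (0.03 ± 0.04). Rpl22l1, which can take its place, read 12.27, 12.42 and 12.43 against 12.44, 12.47 and 12.45, with every deficient array above every sufficient one. The Rpl22l1 change was 0.08 ± 0.05 (adjusted p = 0.497 by limma) and 0.03 without sufficient replicate 1, the low array. Rps27l, a p53-inducible copy of Rps27, read 10.01, 10.09 and 10.26 against 10.23, 10.21 and 10.23 (0.10 ± 0.06), with sufficient replicate 3 above all deficient arrays. Other probe sets of Rps27l, at means of 10.03 and 9.81, had changes of -0.02 and 0.03, so its sign depends on the probe set. Rps27 itself read 7.97, 7.86 and 7.90 against 7.81, 7.90 and 7.93 (-0.02 ± 0.06). Rpl7l1 had a change of -0.07 ± 0.08 and its parent Rpl7 of -0.01 ± 0.04; neither pair of groups was separated.

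Probe sets of the same gene gave a check that does not depend on the choice of the brightest. The 47 members had 98 probe sets, 22 of the members had several, and 0 of the 98 passed the threshold in a limma fit over all probe sets named for 1 gene, with 5 at an unadjusted p under 0.05. The median gap between the highest and lowest change among probe sets of a gene was 0.086. In 10 of the 22 genes all probe sets shared a sign. The gap was widest in Rps24, from -0.31 to 0.22, in Rps18, from -0.11 to 0.27, and in Rps10, from -0.25 to 0.06. In these 3 genes the extreme probe sets had mean log2 intensities between 4.12 and 6.21, except for the Rps10 maximum (12.68). Rpl22 had a second probe set, at 8.88, 9.05 and 9.07 in the sufficient and 9.26, 9.23 and 9.26 in the deficient arrays, with every deficient array above every sufficient one. That probe set had the smallest p of the 98 (change 0.25 ± 0.06, SE, adjusted p = 0.0793 by limma), beside 0.03 for the brighter one. Which transcript of Rpl22 each reads was not analysed here.

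**Figure D4:**
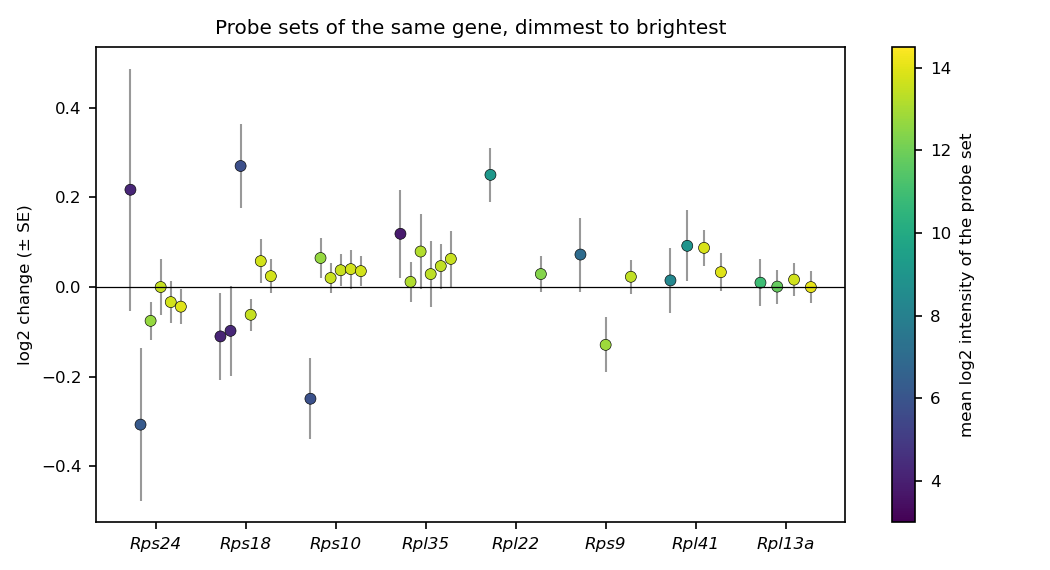
Log2 change with its standard error for every probe set of 8 members, ordered from dimmest to brightest within each gene and coloured by mean log2 intensity. Most bright probe sets lie within 0.1 of 0, but Rps18 has bright ones at 0.06 and -0.06. Rps9 has a probe set of mean 12.83 at -0.13, and probe sets of low intensity of Rps24, Rps18 and Rps10 lie apart.

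Deficient replicate 1 carried many of the bright members' highest values, although over all 47 members its mean deviation (-0.036) was the lowest of the 6 arrays. Of the 31 bright members 11 had their highest value there and 3 to 5 in each other array. Their lowest values numbered 10, 10 and 2 in sufficient replicates 1, 2 and 3 and 5, 0 and 4 in the deficient ones. Of the 54 bright probe sets of members, 22 peaked there. The 27 of these with the suffix x_at, which marks probes that may also read other transcripts, had a mean deviation from the sufficient mean of 0.051 in deficient replicate 1 and of -0.011 and -0.029 in replicates 2 and 3. For the 23 bright probe sets of type a_at it was 0.022, 0.017 and 0.0099. The probe sets shared with other genes added no call: of 102 such probe sets, 0 passed in a limma fit over all probe sets, 7 had an unadjusted p under 0.05, and the median change was 0.021 with a range from -0.18 to 0.34.

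Genes around the ribosome were read for comparison, from lists of other steps of the pathway. Of 37 measured ribosome assembly genes 35 changes were positive and the median was 0.077. None passed (0 by limma), and at an unadjusted p under 0.05 there were 10, each of them higher. Over all genes 53% of changes were positive and 14.4% had such a p, the shares against which this and the following lists are read. Pno1 (0.28 ± 0.06, SE, adjusted p = 0.0518 by limma) and Ltv1 (0.22 ± 0.05), which assemble the small subunit, Wdr43 (0.19) and the nucleolar protein gene Ncl (0.16) had the smallest p. In array means the assembly list lay at -0.013, -0.016 and 0.029 from the sufficient mean in the sufficient and at 0.11, 0.12 and 0.060 in the deficient replicates. The ribosomal protein genes lay at -0.015, -0.016 and 0.031 against -0.036, 0.0036 and 0.021, overlapping. Without Rpl39l they lay at -0.0098, -0.0047 and 0.015 against -0.012, 0.016 and 0.030, so that deficient replicates 2 and 3 were above the sufficient arrays and replicate 1 was below them. The difference between the lists was not tested.

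**Figure D5:**
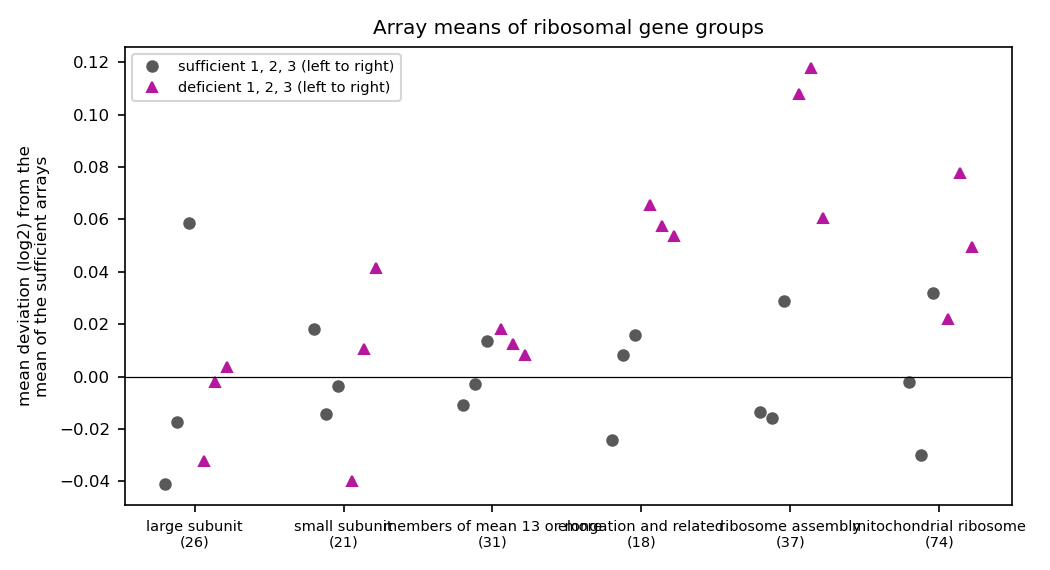
Mean deviation, in log2 units, of each group of genes from its mean over the sufficient arrays, circles for sufficient and triangles for deficient replicates 1, 2 and 3 from left to right. For the ribosome assembly list and the elongation list the deficient arrays lie above the sufficient ones. For both ribosomal subunits, the bright members and the mitochondrial ribosome they overlap.

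Elongation factors and related genes, many of whose messenger RNAs also begin with a pyrimidine tract, had 14 of 18 positive changes, a median of 0.05, 0 calls by limma and 5 genes, each higher, at an unadjusted p under 0.05. Eif4b (0.14), Etf1 (0.15) and Btf3 (0.18) had the smallest p, while the bright Eef1a1 had -0.00048. The array means of this list lay at -0.024, 0.0081 and 0.016 from the sufficient mean in the sufficient replicates. In the deficient replicates they lay at 0.066, 0.058 and 0.054, above all sufficient ones, as for the assembly list. The 74 mitochondrial ribosomal protein genes had 53 positive changes, a median of 0.059 and 0 calls by limma, with 17 positive and 1 negative at an unadjusted p under 0.05; Mrpl17 had 0.27 (adjusted p = 0.0504 by limma). Rpsa and Fau, ribosomal proteins whose symbols the rule does not take, had changes of 0.07 and 0.04, neither past the threshold although their groups did not overlap, and the other genes listed with them were not measured by a probe set of their own.

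Upstream regulators gave 0 calls as well. Of 20 measured mTORC1 and S6 kinase pathway genes 11 had a positive change (median 0.017), with 2 positive and 3 negative ones at an unadjusted p under 0.05 by limma. Sesn3 (-0.20 ± 0.05, SE, adjusted p = 0.0568) and Sesn1 (-0.27 ± 0.07), which encode stress-induced inhibitors of mTORC1, and Larp1 (0.16 ± 0.05), which binds pyrimidine tracts, had the smallest p by limma. In the Myc network, Myc, a driver of ribosome production, read 9.08, 9.17 and 9.51 against 9.52, 9.61 and 9.50 (0.29 ± 0.10, adjusted p = 0.184 by limma), with sufficient replicate 3 just inside the deficient range. Mxd4, which opposes Myc, had 0.26. The 12 genes of that list had a median of -0.024, the 12 of RNA polymerase I a median of -0.00081 with Ttf1 at -0.18, and the 8 of the p53 checkpoint a median of -0.067 with Mdm4 at -0.11; 2, 1 and 1 genes had an unadjusted p under 0.05.

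The arrays were alike in overall signal, with medians between 6.06 and 6.11. The single Gata3 probe set read higher in the deficient arrays, 9.48 ± 0.08 against 9.84 ± 0.14 (SD, n = 3 each), and the deleted part of the gene is not given here, so directions rest on the labels alone. Treg markers such as Ctla4 and Il2ra were well above the dim range, except Foxp3, at a mean of 3.92; Tnfrsf4 rose and Nrp1 fell. All 7 measured proliferation genes had a positive change and 6 passed, with list means from -0.22 to 0.21 in the sufficient and 0.56 to 0.72 in the deficient arrays. The 7 neutrophil genes lay at -0.06 to 0.09 against 0.10 to 0.83 and the 9 myeloid genes at -0.08 to 0.11 against 0.05 to 0.41, with 0 past the threshold; B cell, NK cell, CD8, erythroid and platelet lists overlapped between groups or lay within 0.2 of the sufficient mean. The 3' minus 5' difference of the Gapdh control, a sign of RNA quality, was 0.385 to 0.555 in the sufficient and 0.477 to 0.520 in the deficient arrays. For the beta-actin control it was 0.747, 0.807 and 0.887 in the sufficient and 0.868, 0.857 and 0.907 in the deficient replicates, overlapping. The part of these differences in the members' values was not tested.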

How the data were processed

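Gene expression of sorted Treg cells was measured on 6 Affymetrix arrays, from 6 ug of total RNA each, per the labels' protocols. The authors deposited log2 intensities; RMA is named, without a version, in the submitters' processing notes, and the log2 scale was read from the values. RMA corrects background, quantile normalizes arrays and summarises probes, so a shift shared by all genes cannot be seen. A shift shared by the brightest genes, most of them members, may also be reduced. Of 22690 probe sets 20393 were annotated with 1 gene. Groups were compared unpaired with limma 3.58.1 in R 4.3.3 (lmFit, eBayes with an intensity trend), two-sided, with Benjamini-Hochberg adjustment over all 12394 genes. The fit was tested on simulated data. Errors are SDs over 3 arrays or limma's SEs. The number of arrays limits precision; the series text gives 3 mice a group. Named were members past the threshold, the 8 most positive and negative, paralogs, members of known roles, the widest probe set gaps, and up to 4 genes a list. The members and lists were chosen with earlier results of these data known. Alternatives (normalization, variance model, probe set choice, arrays left out) are given in the closing section. Promoters came from RefSeq, matched by gene identifier.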

Additional observations from a re-analysis of the deposited data

How the results depend on the processing

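The count of ribosomal protein genes past the threshold was 0 in every alternative fit run (replicate block, no intensity trend, robust variance, dim probe sets left out, renewed quantile normalization, median centring over all probe sets or all other genes, array quality weights, other probe sets, an adjusted p under 0.1, each array left out). At an unadjusted p under 0.05 it was 2. With the replicate number as a block it was also 0, with 368 calls over all genes; same-numbered arrays had correlated deviations of 0.04, -0.02 and 0.07, so the numbers were not taken to pair the mice. Calls over all genes numbered 54 without the intensity trend, 585 with array weights, 525 at an adjusted p under 0.1, 1789 at an unadjusted p under 0.05, and 62 to 270 with 1 array left out; the causes were not tested. The members' median ran from 0.0066 to 0.026 with 1 array left out, and the large minus small difference from -0.00053 to 0.035. Of 772 member results under alternatives 742 moved by less than 1 SE, 30 by more, and 0 were called. The 742 include fits that cannot move a log2 change: the replicate block, no intensity trend, robust variance and dim probe sets left out. Chosen after seeing the data, the bright members alone had a median of 0.017 and the members without Rpl39l 0.011. Both were taken from the main fit, so their 0 calls follow from it and are no further check. The 74 genes with shared probe sets added, in a new fit, had a median of 0.011 and 0 calls.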
